A study of Mus musculus with 4 samples.

Results

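The 43 protein-coding genes described here encode spliceosome proteins, related Lsm proteins and the SR splicing factors, and are called splicing genes for short. Some Lsm proteins, such as those of Lsm1, Lsm10 and Lsm11, act outside the spliceosome. All 43 genes were taken by symbol from the 22380 protein-coding genes of the GENCODE M1 annotation of the mouse mm9 assembly. They comprise 12 Snrp genes, 12 Lsm genes, 8 genes of the SF3A and SF3B complexes (Sf3 genes) and 11 Srsf genes. Binding of Myc and of its dimerization partner Max was read from 2 lists of ChIP-Seq peaks from E14 mouse embryonic stem cells (ESCs), each made from 1 library. For the Bio-Myc list, chromatin of 1 stable E14 clone expressing biotin-tagged Myc was pulled down with streptavidin beads, and a mock ChIP served as its control. The tagged Myc was driven by the ubiquitous EF1α promoter in cells that also carry the biotin ligase BirA, and the endogenous Myc genes were left in place. For the Max list, chromatin of parental wild-type E14 cells was precipitated with an antibody against Max, and an IgG ChIP from the same cells served as its control. The methods name BirA cells as the reference of the streptavidin ChIP, whereas the sample labels describe the mock cells as parental wild type. Neither control library was analysed here by itself. Since both lists come from different cells and different pull-downs, a difference between them cannot be told apart from a difference between Myc and Max.

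The spliceosome removes introns from messenger RNA precursors. Its small nuclear ribonucleoprotein particles (snRNPs) are built on a ring of Sm proteins, the products of the Snrpb, Snrpd, Snrpe, Snrpf and Snrpg genes, while related Lsm proteins form rings on U6 RNA in the nucleus and on messenger RNAs that are being degraded in the cytoplasm. SF3A and SF3B are subcomplexes of the U2 snRNP, which recognizes the branch site of the intron, and SR proteins bind exons and recruit snRNPs to the neighbouring splice sites. Myc is a transcription factor that dimerizes with Max and binds the E-Box, CACGTG, and genes of RNA processing are well-known targets of it in proliferating cells. Peak lists show where a factor was bound and hold no measurement of expression.

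Bound genes were those with a peak in the window of 1 kb to either side of any annotated transcription start site (TSS) of the gene. Each peak carries a score from the peak caller MACS, its p-value as −log10 multiplied by 10, so that the limit of 1e-08 is a score of 80. Bio-Myc bound 24 of the 43 genes, a share of 55.8% (95% Wilson interval 41.1 to 69.6%), against 14.6% of all protein-coding genes. Max bound 31 genes (72.1%, 57.3 to 83.3%), against 34.8% of all protein-coding genes. The Max list is longer, and when cut to as many of its highest peaks as the Bio-Myc list holds, it bound 18 of the 43 genes (41.9%) and 15.5% of all protein-coding genes. Both factors bound 21 genes (48.8%, 34.6 to 63.2%), against 12.7%. The families differed in Bio-Myc. It bound 9 of 12 Snrp genes (46.8 to 91.1%) and 9 of 11 Srsf genes (52.3 to 94.9%) but 2 of 12 Lsm genes (4.70 to 44.8%). The Lsm interval did not overlap those of the Snrp and Srsf genes. The Lsm share, 16.7%, was close to the 14.6% of all protein-coding genes. Of the 8 Sf3 genes Bio-Myc bound 4 (21.5 to 78.5%), with an interval that overlapped those of all the other families. With a stricter p-value limit of 1e-15 Bio-Myc bound 3 Snrp genes, 7 Srsf genes and 2 Lsm genes, so that the Snrp and Lsm families then differed by 1 gene. Max bound 9 Snrp genes, 10 Srsf genes and 8 Lsm genes, with intervals that overlapped. All intervals cover counting error only, since there are no replicates, and the depth of the libraries is unknown because the lists hold no read numbers.

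Sequences of E-Boxes under the peaks are given first, because few of these peaks held one. CACGTG was searched on both strands of the mm9 sequence under the strongest Bio-Myc peak of each bound gene. It was found in 4 of 24 genes, namely Snrpa, Lsm4, Sf3a2 and Srsf2. For each of them the E-Box nearest to the centre of the peak is shown with 12 bases to either side, 5′ to 3′ on the strand of the gene, with the E-Box in capitals.
Snrpa, chr7:27980831-27980860, minus strand: acgcctttcgcgCACGTGgactaatgggaa
Lsm4, chr8:73197581-73197610, plus strand: ggcttaatggctCACGTGggcttcgttgcc
Sf3a2, chr10:80262003-80262032, plus strand: tgtcccaagtttCACGTGtgagcccctcca
Srsf2, chr11:116713810-116713839, minus strand: aggtacgcggagCACGTGgagccagcccct

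The E-Box of Snrpa lay 67 bp upstream of the nearest annotated TSS of the gene and 162 bp from the peak centre, in an intron of a longer transcript. That of Lsm4 lay in an intron 264 bp downstream of a TSS and 244 bp from the peak centre. The E-Box of Sf3a2 was intronic as well, 303 bp downstream of a TSS, and at 769 bp from the peak centre it was close to the edge of the peak. That of Srsf2 was intronic, 292 bp upstream of the nearest TSS and 445 bp from the peak centre. Snrpa stood apart from the other genes with 4 E-Boxes under 1 Bio-Myc peak. Its 3 further E-Boxes lay outside the gene, at 30, 71 and 269 bp upstream of the outermost TSS, and are shown in the same way.
Snrpa, chr7:27981305-27981334, minus strand: gctcttgaaggtCACGTGatactggcggaa
Snrpa, chr7:27981346-27981375, minus strand: cctttcccatccCACGTGatagaactcgca
Snrpa, chr7:27981544-27981573, minus strand: ttacaaaaaaggCACGTGggtgagaaaaca

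The plot of peaks around the TSS shows how these E-Boxes sat in the peaks. Every strongest Bio-Myc peak of the 24 genes covered an annotated TSS, as did those of 2858 of the 3251 other protein-coding genes with one. In the 24 genes the peak centre was a median of 82 bp from the nearest TSS, against 147 bp in those other genes. By family the median was 61 bp in the Snrp, 44 bp in the 2 Lsm, 116 bp in the Sf3 and 157 bp in the Srsf genes. The 43 genes had a median of 3 annotated TSSs and other protein-coding genes 2, and the distances were not adjusted for this. In all, 8 E-Boxes lay under the peaks of the 24 genes, the other one in an intron of Lsm4, 674 bp downstream of a TSS. None of the 8 was within 100 bp of its peak centre, and their median distance from it was 399 bp.

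**Figure D1:**
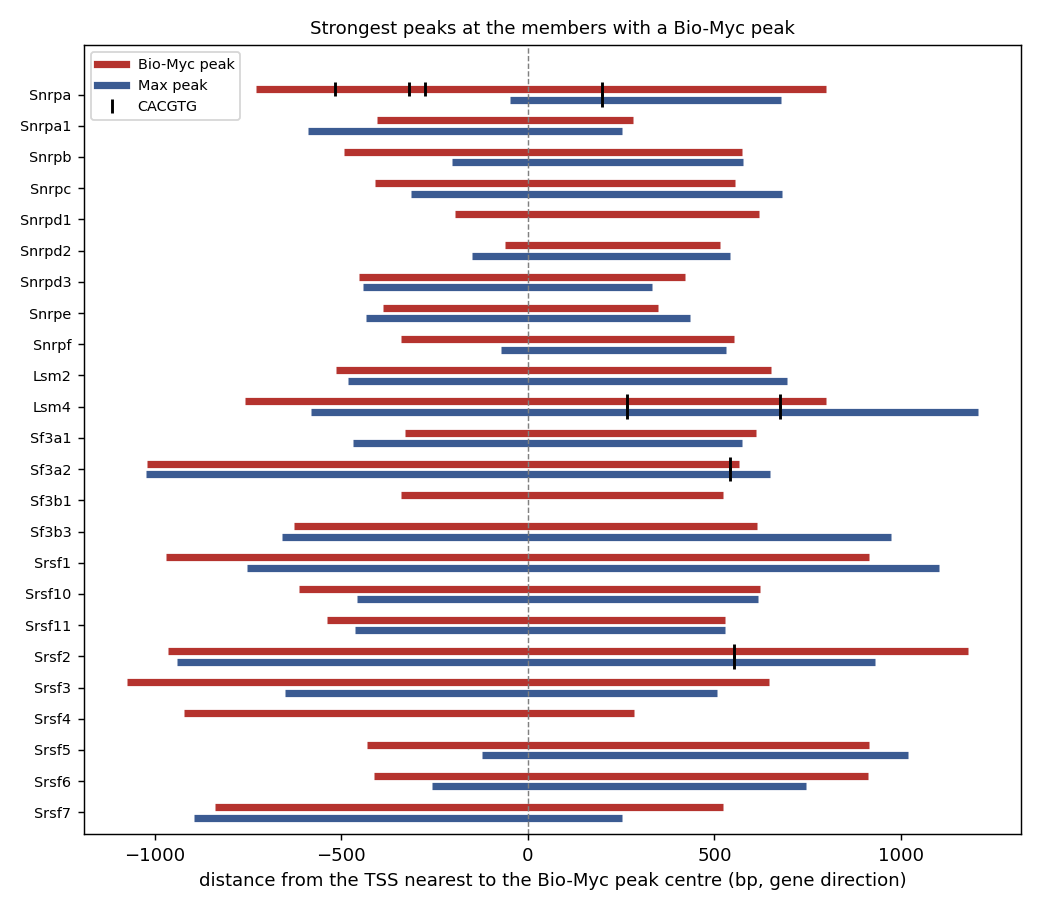
Extent of the strongest Bio-Myc peak (red) and the strongest Max peak (blue) at the 24 genes with a Bio-Myc peak, in bp from the TSS nearest to the Bio-Myc peak centre, with negative values upstream; black ticks mark CACGTG. Every red bar crosses 0, and ticks are present in 4 genes, Snrpa, Lsm4, Sf3a2 and Srsf2.

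E-Boxes were less frequent under the peaks of the splicing genes than under those of other genes. Of the 3251 other protein-coding genes with a Bio-Myc peak, 49.4% had a CACGTG under the strongest peak (47.7 to 51.1%), against 16.7% of the 24 splicing genes (6.68 to 35.9%), and the intervals did not overlap. In the central 200 bp of the peak the share was 0 of 24 genes (0 to 13.8%) against 17.3% of the other genes. Subsets of the peaks were compared with limits that were set after seeing the data. With scores of 150 or higher, 4 of 15 splicing genes (26.7%) and 59.4% of 1517 other genes had an E-Box under the peak. In peaks 900 to 1500 bp wide the counts were 0 of 11 splicing genes (0 to 25.9%) and 49.4% of 1764 other genes. The 4 peaks with an E-Box were all wider than that, at 1527 bp (Snrpa), 1559 bp (Lsm4), 1588 bp (Sf3a2) and 2144 bp (Srsf2). The count of 0 was thus fixed by where the upper limit was set. Also wider, and without an E-Box, were the peaks of Srsf1 (1885 bp) and Srsf3 (1721 bp). Among CpG-rich promoters, defined below, the share in other genes was 49.0%. At promoters shared with another coding gene on the opposite strand it was 3 of 9 splicing genes (33.3%, 12.1 to 64.6%) and 44.1% of 904 other genes, with overlapping intervals, and at the remaining promoters 1 of 15 (6.67%, 1.19 to 29.8%) and 51.5%. Under Max peaks an E-Box was found in 5 of 31 splicing genes (16.1%, 7.09 to 32.6%) and in 37.5% of 7757 other genes, and Lsm7 was the gene added by the Max list. The comparison was not tested, since the genes were chosen with results of these lists known.

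**Figure D2:**
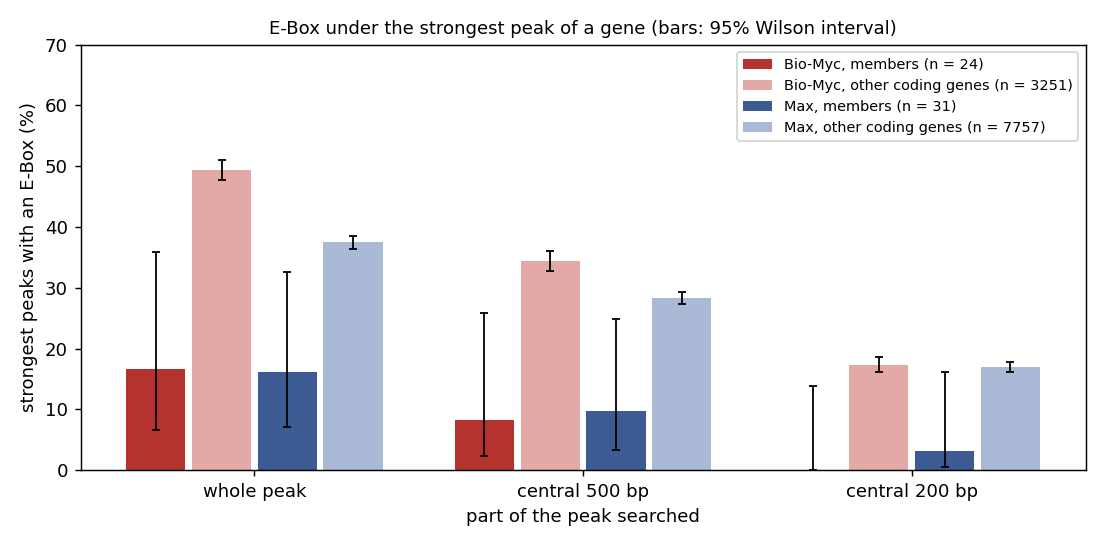
Percent of genes with CACGTG under the strongest Bio-Myc peak (red) or Max peak (blue), in the whole peak, its central 500 bp and its central 200 bp, for the splicing genes (dark) and other protein-coding genes (light); error bars are 95% Wilson intervals. Dark bars are below the light bars of the same list in every part of the peak, 16.7% against 49.4% for Bio-Myc in the whole peak.

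Over all promoters, whether bound or not, the difference was small. Within 1 kb of the outermost TSS, CACGTG was present in 11 of the 43 genes (25.6%, 14.9 to 40.2%) and in 27.8% of other protein-coding genes. Among CpG-rich promoters these shares were 26.2% and 33.5%, and among genes with a Bio-Myc peak 29.2% (7 of 24, 14.9 to 49.2%) and 50.0% (48.3 to 51.7%), with overlapping intervals. Max bound all 11 splicing genes with such an E-Box and Bio-Myc bound 7 of them (63.6%), against 52.2% and 26.1% of the 6217 other genes with one. Of the 32 genes without an E-Box in that region, Max bound 20 (62.5%) and Bio-Myc 17 (53.1%), against 28.0% and 10.1% of other protein-coding genes without an E-Box. A second, weaker Bio-Myc peak of Srsf10, with a score of 106 and its centre 697 bp downstream of a TSS, also held 1 E-Box.

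Among 5 other sequences related to the E-Box, CACGCG was the most frequent in the central 200 bp of the Bio-Myc peaks. It was present in 9 of 24 splicing genes (37.5%, 21.2 to 57.3%) and in 21.8% of other genes with a Bio-Myc peak (20.4 to 23.3%), so that the intervals overlapped. Under Max peaks it was present in 10 of 31 genes (32.3%) and in 23.1% of other genes. CACGTG or any of the 5 related sequences (CACGCG, then CACATG, then CACGAG, then CATGCG, then CACGTT) was found there in 14 of 24 splicing genes (58.3%) and in 1787 of the 3251 other genes (53.3 to 56.7%). CACGCG sites of 8 of the 9 genes, all but Snrpd1, are shown to set them beside the E-Boxes, in the direction that reads CACGCG and with the strand of mm9. These sites were picked after the counts were known, as the nearest to the centre of the Bio-Myc peak in each gene.
Snrpa1, chr7:73205605-73205634, minus strand: gtttcccgcagcCACGCGccggggccggaa
Snrpd3, chr10:74980761-74980790, minus strand: tctcacgaatacCACGCGctcccagaatgc
Lsm2, chr17:35118918-35118947, plus strand: ccagtcttgcttCACGCGcgggctcgcgct
Lsm4, chr8:73197299-73197328, minus strand: gcggcacagacaCACGCGctcccaccggcg
Sf3a2, chr10:80261290-80261319, plus strand: cgctgcagtgagCACGCGcactctgcgccc
Sf3b1, chr1:55084145-55084174, minus strand: cctttcccttccCACGCGcgacctcggcag
Srsf3, chr17:29169407-29169436, plus strand: gggacaagccggCACGCGgcgacgagctcg
Srsf6, chr2:162757580-162757609, minus strand: tagaggccctgcCACGCGgcgccgcggcct

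At Snrpd3 this site was 5 bp from the peak centre and 12 bp upstream of the TSS. At Lsm2 it was 9 bp from the centre, in a UTR. The sites of Snrpa1 and Srsf3 were 14 and 19 bp from the centre. A match to these 6 letters is a description of the sequence and no measured binding site.

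Nearly all of the genes had promoters rich in CpG. A promoter was called CpG-rich when a stretch of 500 bp within 1 kb of the outermost TSS had a GC share of at least 0.55 and an observed to expected CpG ratio of at least 0.6. This held for 42 of the 43 genes, all but Snrpn, and for 56.3% of other protein-coding genes. Snrpn has 2 annotated TSSs, and the call covers only the outermost. Among CpG-rich promoters, Bio-Myc bound 57.1% of the splicing genes (42.2 to 70.9%) and 24.1% of the others (23.3 to 24.8%), and Max bound 73.8% (58.9 to 84.7%) and 56.0% (55.1 to 56.9%). The intervals of splicing and other genes did not overlap in either list, with a narrow gap for Max. Of the splicing genes with a Max peak, 67.7% also had a Bio-Myc peak (50.1 to 81.4%), against 37.5% of the other Max-bound genes with CpG-rich promoters. In the other direction, 87.5% of the Bio-Myc-bound splicing genes and 86.5% of the other Bio-Myc-bound genes had a Max peak, with overlapping intervals (69.0 to 95.7% and 85.2 to 87.6%). The Bio-Myc and Max peaks overlapped in 21 of the 21 genes that had both, as they did in 98.0% of all protein-coding genes with both.

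**Figure D3:**
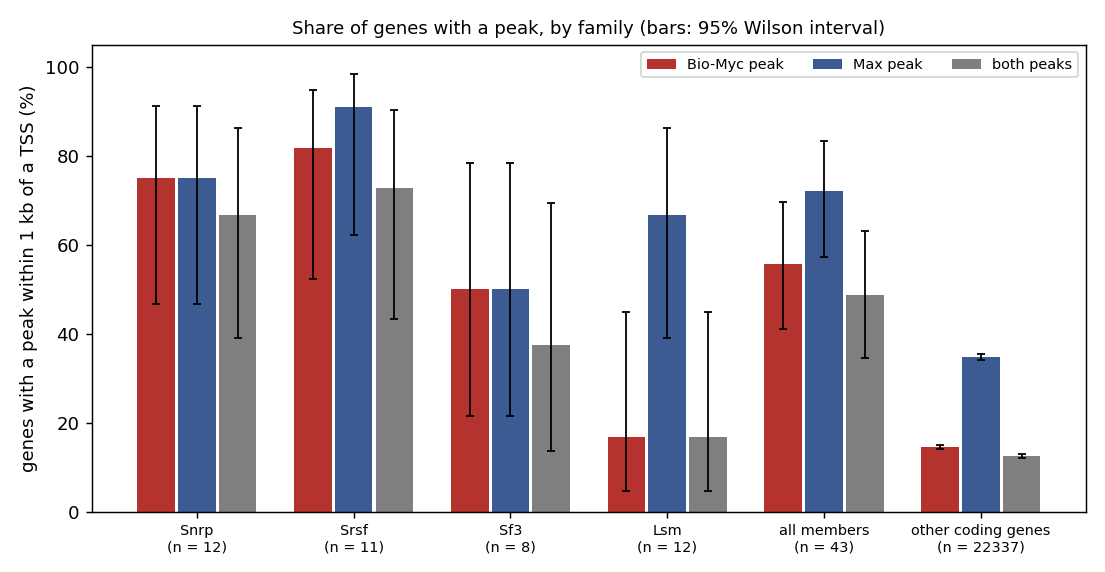
Percent of genes with a Bio-Myc peak (red), a Max peak (blue) or both (grey) within 1 kb of a TSS, for each family, all 43 genes and the 22337 other protein-coding genes; error bars are 95% Wilson intervals. The Lsm genes have a Bio-Myc bar (16.7%) close to that of the other protein-coding genes (14.6%), beside a Max bar of 66.7% (39.1 to 86.2%). All 12 Lsm promoters were CpG-rich. Other genes with CpG-rich promoters, not plotted, had Bio-Myc in 24.1% and Max in 56.0%, which lies within the Lsm interval for Max. Bio-Myc reaches 75.0% in the Snrp and 81.8% in the Srsf genes.

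Promoters shared with another gene and the number of TSSs were also counted. A TSS of another protein-coding gene lay on the opposite strand within 1 kb in 12 of the 43 genes (27.9%, 16.7 to 42.7%) and in 11.9% of other genes. Max bound all 12 of them and Bio-Myc bound 9 (75.0%), against 64.9% and 33.9% of the 2668 other genes with such a neighbour, and a peak at such a promoter cannot be assigned to either gene. These pairs are Snrpa with BC024978, Snrpd2 with Qpctl, Snrpd3 with 1110038D17Rik, Lsm1 with Bag4, Lsm3 with Xpc, Lsm7 with 3110056O03Rik, Sf3a1 with Ccdc157, Sf3a2 with Plekhj1, Sf3b3 with Cog4, Srsf11 with Lrrc40, Srsf2 with Mfsd11 and Srsf7 with Ttc39d. In the 31 genes without such a neighbour, Bio-Myc bound 48.4% and Max 61.3%, against 11.9% and 30.6% of other genes of that kind. Genes with more annotated TSSs offer more windows to a peak. With the outermost TSS alone, Bio-Myc bound 24 and Max 31 of the 43 genes, against 13.6% and 32.2% of all protein-coding genes. Among genes with 1 TSS, Bio-Myc bound 5 of 12 splicing genes (41.7%) and 8.68% of other genes, and among those with 5 or more it bound 11 of 13 (84.6%) and 24.3%.

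Taken over the 4 families, peak scores at the splicing genes had a higher median than at other genes in both lists. Their strongest Bio-Myc peaks had scores from 84.1 to 487 with a median of 184, against a median of 142 in other protein-coding genes, and 6 of 24 (25.0%) were in the top 10% of the list, against 13.2% of the other genes with a Bio-Myc peak. The medians of the Snrp genes were not higher, at 142 for Bio-Myc and 175 for Max. The median width of the Bio-Myc peaks was 1187 bp, against 1074 bp. For Max the scores ran from 89.9 to 1057 with a median of 237, against 196. Close to the limit of 80 were the Bio-Myc peaks of Snrpc (84.1), Srsf4 (84.9) and Snrpb (96.9), and the Max peak of Snrpf (89.9). Scores depend on depth and were compared within a list, except as a ratio set beside the same ratio in other genes. In genes with both peaks, the score of Max divided by that of Bio-Myc had a median of 1.42 in the 21 splicing genes, 0.947 in the 8 Snrp genes and 1.65 in other genes.

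**Figure D4:**
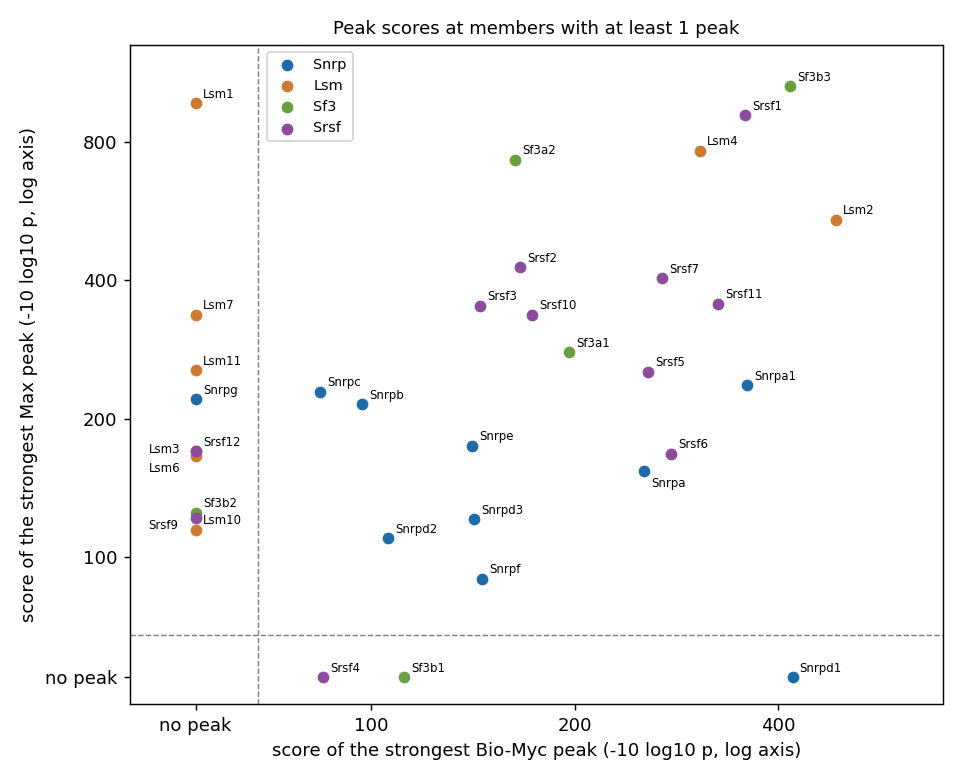
Score of the strongest Bio-Myc peak (x axis) and of the strongest Max peak (y axis) at the 34 genes with at least 1 peak, both on log axes, coloured by family; genes without a peak in a list are placed beyond the dashed line at "no peak". Lsm2 has the highest Bio-Myc score (487) and Sf3b3 the highest Max score (1057), and 6 of the 10 genes in the column without Bio-Myc are Lsm genes.

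Chromosome 8 bears on the Max values. It holds 11.7% of the Max peaks and 5.40% of the Bio-Myc peaks, and Max bound 60.6% of its protein-coding genes, with a median score of 302, against 33.5% and 190 elsewhere. The members Lsm1, Lsm4, Lsm6 and Sf3b3, are on this chromosome and all had a Max peak, with scores of 971, 764, 166 and 1057. Without chromosome 8, which was left out after seeing the data, Max bound 27 of 39 genes (69.2%) and Bio-Myc 22 of 39 (56.4%). The count of Lsm genes with Max was 5 of 9 (55.6%), and that with Bio-Myc 1 of 9.

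In the Snrp family, the Sm ring proteins were bound almost throughout. Bio-Myc bound 6 of their 7 genes, all but Snrpg, and Max bound 6, all but Snrpd1. Of the 4 genes for proteins particular to the U1 and U2 snRNPs, Snrpa, Snrpa1 and Snrpc had both peaks and Snrpb2 had neither. Many of these peaks were low, since 3 of the 9 Bio-Myc peaks passed a p-value of 1e-15, against 7 of the 9 in the Srsf genes. Of the Sm ring genes, Snrpd1 alone passed it, and the others with Bio-Myc had scores from 96.9 to 146. Snrpd1, which encodes the Sm protein D1, had the highest Bio-Myc score of the family, 420 (rank 217 of 3962), in a peak from 10617599 to 10618412 on chromosome 18. This peak covered the single annotated TSS at 10617794, and the nearest Max peak ended 7035 bp upstream. The peaks of the Max list are numbered in order along the genome from 1 to 11570 without a gap. Of the 268 other protein-coding genes with a Bio-Myc score of 400 or higher, 267 had a Max peak, a limit that was set after the score of Snrpd1 was known.

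Snrpa1, which encodes the U2 protein A′, had a Bio-Myc score of 360 in a peak from 73205264 to 73205949 on chromosome 7, and a Max score of 237 in a peak from 73205077 to 73205919. The Bio-Myc peak of Snrpa, the gene of the U1 protein A, scored 253 and lay from 27980245 to 27981771 on chromosome 7. Its strongest Max peak scored 154 and reached from 27980366 to 27981092, and a second Max peak with a score of 82.2 covered the upstream E-Boxes. Counted from the top, the Bio-Myc peak of Snrpa1 stood at 7.72% of its list and the Max peak at 30.1%, and those of Snrpa at 15.6% and 52.2%. The remaining bound genes of the family had Bio-Myc scores of 106 (Snrpd2), 142 (Snrpd3), 141 (Snrpe) and 146 (Snrpf), besides Snrpb and Snrpc. Their Max scores were 110 at Snrpd2, 121 at Snrpd3, 175 at Snrpe, 215 at Snrpb and 229 at Snrpc. Snrpg, the gene of the Sm protein G, had a Max peak alone, with a score of 221, from 86321027 to 86322026 on chromosome 6, and its nearest Bio-Myc peak was 100148 bp away. Snrpb2, for the U2 protein B″, was 1201667 bp from the nearest Bio-Myc peak and 159507 bp from the nearest Max peak. Snrpn, an imprinted gene whose product replaces SmB in neurons, was 2303595 and 664971 bp away from them.

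Max bound 6 of the 7 genes from Lsm1 to Lsm7, which encode ring subunits, and 2 of the 5 others, while Bio-Myc bound Lsm2 and Lsm4 alone. Lsm2 had the highest Bio-Myc score of all 43 genes, 487 (rank 145), in a peak from 35118341 to 35119507 on chromosome 17. Its Max peak scored 542 and ran from 35118375 to 35119550. At Lsm4 the Bio-Myc peak scored 306 and lay from 73196573 to 73198131 on chromosome 8, and the Max peak scored 764 and lay from 73196751 to 73198537. Both Lsm proteins are part of the nuclear and the cytoplasmic ring. Lsm1, the subunit that sets the cytoplasmic ring apart, had Max without Bio-Myc, the reverse of Snrpd1. Its Max peak from 26895016 to 26896869 on chromosome 8 scored 971 (rank 183 of 11570), and the nearest Bio-Myc peak ended 30620 bp upstream. Among the 206 other protein-coding genes with a Max score of 900 or higher, 71.4% had a Bio-Myc peak, again with a limit set after seeing the score. By these limits, a strong Max peak without Bio-Myc was less rare than the reverse. The Max list is longer, at 11570 peaks against 3962, and the score limits differ, so these shares do not compare the factors. Max scores at genes of chromosome 8 had a median of 302, against 190 elsewhere, and the Lsm1 promoter is shared with Bag4.

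The other Lsm genes with Max alone had scores of 115 (Lsm10), 255 (Lsm11), 170 (Lsm3), 166 (Lsm6) and 337 (Lsm7). Lsm10 and Lsm11 encode subunits of the U7 snRNP, which processes histone messenger RNAs. Their nearest Bio-Myc peaks were 5859 and 9844 bp from a TSS, against 42398 bp for Lsm3, 300589 bp for Lsm6 and 47150 bp for Lsm7. Neither peak was found at Lsm5, Lsm12, Lsm14a and Lsm14b. At Lsm12 Bio-Myc and Max peaks, scored 401 and 609, ended 3824 and 3926 bp upstream of the TSS, so that a window of 5 kb counted it as bound by both. Lsm14b had both peaks 13516 and 13659 bp downstream of a TSS. Lsm14a was 178420 bp from Bio-Myc and 61336 bp from Max, and Lsm5 was 131855 and 92807 bp away. Among the 8 Lsm genes with Max, 25.0% also had Bio-Myc (7.15 to 59.1%), against 88.9% of 9 Snrp genes (56.5 to 98.0%) and 8 of 10 Srsf genes (49.0 to 94.3%). The interval of the Lsm genes overlapped both of these. It also held the share in other protein-coding genes with Max, 36.2%, or 37.5% of those with CpG-rich promoters.

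Of the 8 Sf3 genes, Bio-Myc bound 4 and Max bound 4, with 3 in common. Of the 3 SF3A genes, Sf3a1 and Sf3a2 had both peaks, and of the 5 SF3B genes Sf3b3 did. Sf3b3, a large scaffold subunit of SF3B, had a Bio-Myc score of 417 (rank 221) from 113370090 to 113371329 on chromosome 8. Its Max score of 1057 (rank 142), from 113369731 to 113371363, was the highest of all 43 genes, at a promoter shared with Cog4. Sf3a1 had a Bio-Myc score of 196 from 4060029 to 4060969 on chromosome 11 and a Max score of 279 from 4059889 to 4060931. Sf3a2 had a Bio-Myc score of 163 from 80260456 to 80262043 on chromosome 10, and a Max score of 731 from 80260453 to 80262126. The ratio of Max to Bio-Myc, 4.50, was the largest among the 21 genes with both peaks. Sf3b1, whose product contacts the branch site and is often mutated in blood cancers, had a Bio-Myc peak with a score of 112 from 55083800 to 55084662 on chromosome 1. Max was found no closer than 24753 bp upstream. Sf3b2 had Max alone, with a score of 125 from 5294983 to 5295712 on chromosome 19, and its nearest Bio-Myc peak was 11133 bp away. Neither peak was present at Sf3a3, Sf3b4 and Sf3b5. For Sf3a3 the distances were 103114 bp to Bio-Myc and 20643 bp to Max, for Sf3b4 23990 and 24008 bp, and for Sf3b5 184132 and 43750 bp.

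Every Srsf gene had at least 1 of the peaks, and 8 of 11 had both. Srsf1, the founding SR protein and a regulator of alternative splicing, had the highest scores of the family in both lists. Its Bio-Myc peak scored 357 (rank 314) from 87860249 to 87862133 on chromosome 11, and its Max peak 914 (rank 217) from 87860467 to 87862323. Srsf11 had 2 Bio-Myc peaks, the stronger with a score of 326 from 157694161 to 157695229 on chromosome 3, and the other with a score of 163. Its Max peaks scored 356, from 157694161 to 157695153, and 237. Both pairs of peaks lay at different annotated TSSs of this gene, which has 14. Srsf6 had a Bio-Myc score of 278 from 162756984 to 162758308 on chromosome 2 and a Max score of 168 from 162757140 to 162758142. Its ratio of Max to Bio-Myc, 0.604, was the lowest among the 21 genes with both peaks. The Bio-Myc scores of the rest were 269 (Srsf7), 257 (Srsf5), 173 (Srsf10), 166 (Srsf2) and 145 (Srsf3). Their Max scores were 404 at Srsf7, 253 at Srsf5, 337 at Srsf10, 427 at Srsf2 and 352 at Srsf3. Srsf4 had Bio-Myc alone, with a score of 84.9 from 131428611 to 131429817 on chromosome 4, with the closest Max peak 29616 bp upstream. Max alone was found at Srsf12, with a score of 170 from 33295678 to 33296464 on chromosome 4, and at Srsf9. The peak of Srsf9, with a score of 122 and a width of 347 bp, was the only strongest peak of these genes that did not cover a TSS. It lay inside the gene, from 115777280 to 115777626 on chromosome 5. It was downstream of the outermost TSS at 115777186 and ended 39 bp upstream of another TSS. The nearest Bio-Myc peaks were 55737 bp from Srsf12 and 10121 bp from Srsf9.

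Other genes of splicing were counted in the same way, and the ones named here were chosen after their values were seen. Over all protein-coding genes, the shares with Bio-Myc and Max were 14.6% and 34.8%, and over those with CpG-rich promoters 24.2% and 56.0%. Of 60 further spliceosome proteins, such as the Prpf and Snrnp proteins, Bio-Myc bound 27 (45.0%, 33.1 to 57.5%) and Max 40 (66.7%). The factors that assemble Sm rings had Bio-Myc in 10 of 17 genes and Max in 10, among them Gemin4 with scores of 563 and 701 and Wdr77 with scores of 287 and 216. Prmt5, which methylates Sm proteins, had a Bio-Myc score of 205 and no Max peak. Of 19 SR-related proteins and SR kinases, Bio-Myc bound 10 and Max 17. The kinases Clk1, Clk2, Clk3 and Srpk1 had Max peaks alone, with scores of 159, 165, 212 and 236. Clk4 had both peaks, with scores of 94.8 for Bio-Myc and 840 for Max, as did Srpk2 with 110 and 106, and Srpk3 had neither. The hnRNP proteins, which often counter SR proteins in splice site choice, had the highest Bio-Myc share of these lists, 21 of 26 genes (80.8%, 62.1 to 91.5%), with Max in 22. Hnrnpa1 scored 804 for Bio-Myc and 758 for Max, and Pcbp1 763 and 1821. Under the Bio-Myc peaks of the hnRNP genes an E-Box was present in 12 of 21 (57.1%, 36.5 to 75.5%), against 8 of 27 further spliceosome proteins (29.6%, 15.9 to 48.5%), with overlapping intervals. It was present in 5 of 10 genes of Sm ring assembly and in 3 of 10 of the SR-related proteins and SR kinases. The intervals of all these lists except the hnRNP genes overlapped that of the 24 splicing genes with Bio-Myc (16.7%, 6.68 to 35.9%).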

How the data were processed

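Chromatin from mouse E14 ESCs was analysed as 2 deposited peak lists, Bio-Myc (3962 peaks) and Max (11570 peaks), 1 library each. The authors aligned to mm9 by Bowtie 0.12.7 (reads with a single hit and at most 2 mismatches), removed redundant reads, and ran MACS 1.4.1 against the mock or IgG ChIP with a p-value limit of 1e-08. Base calls came from CASAVA 1.8, per the labels. The deposited score of a peak is the −log10 of its p-value multiplied by 10. The fixed limit makes the number of peaks depend on depth, which is unknown, and unique mapping leaves out repeated sequence.

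Genes were those of GENCODE M1 on the same assembly. The members were the protein-coding genes whose symbol starts with Snrp, Lsm and a digit, Sf3a, Sf3b or Srsf. Members and lists were chosen with earlier results of these data known. A peak had to overlap the window by 1 bp. Named in full were, per family, the 3 highest Bio-Myc scores, the genes with Bio-Myc alone and the highest Max score without Bio-Myc. No tests were made. Counts were done in Python 3.11.15 with numpy 2.4.6, scipy 1.17.1 and matplotlib 3.10.9, and tested on simulated data, where 10 of 10 steps returned the known answer. Coordinates are 1-based. Stricter p-values, other windows, other TSS sets, equal numbers of peaks and peak centres were tried as alternatives.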

Additional observations from a re-analysis of the deposited data

How the results depend on the processing

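The depth of both libraries is unknown, so the absence of a peak means only that none passed the p-value limit. With the window at the TSS itself, within 500 bp, or from 3 kb upstream to 2 kb downstream, the Bio-Myc count of the 43 genes was 24, and within 5 kb it was 25. At a stricter p-value limit of 1e-15, Bio-Myc bound 15 of the 43 genes and 1532 of all protein-coding genes, and Max bound 5066 of the latter. The Snrp genes with Bio-Myc then fell from 9 to 3. With as many Max peaks as Bio-Myc peaks, Max bound 18 of the 43 genes and 3467 protein-coding genes. The Snrp genes with Max were then 3 in place of 9, and the Lsm genes 5 in place of 8. An E-Box was found in 0 genes in the central 200 bp of the Bio-Myc peak and in 2 in the central 500 bp, where less sequence is searched. Leaving out chromosome 8 was added after seeing the data. No paired analysis was possible because each list comes from 1 library and no test was made. The cause of these changes was not tested beyond what each alternative leaves out. In all, 50 of 57 alternative counts for the 43 genes or for all protein-coding genes, and 74 of 78 for single families, were within 1.5 times the main count.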
